A study of Mus musculus with 10 samples.

Results

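Vegfa, Adm, Apln, Angptl4, Car9 and Car12 code for secreted or cell-surface proteins and are known targets of the hypoxia response. They were taken from the deposited count table as the rows whose symbol in GENCODE mouse release M21 is one of these 6 names; the names themselves were chosen with earlier results of these data known. They are 6 of the 18381 genes in the table, and 5 of them passed the expression filter while Car9 did not. With IGF1, Vegfa, Apln and Car12 rose and Angptl4 fell. Adm passed the test for a rise, but that call depended on single embryos and on the filter, and Car9 went from 6 counts in all control teeth together to 83 in the IGF1 teeth.

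The samples are first lower molars of wild type C57BL/6JOlaHsd mouse embryos at embryonic day 14 (E14). From each of 5 embryos (1, 2, 3, 4 and 6), one molar was placed in medium with mouse recombinant insulin-like growth factor 1 (IGF1, 750 ng/ml) and its partner in medium with an equal volume of the vehicle, phosphate-buffered saline with bovine serum albumin. Both groups therefore share the dissection, the hanging drop culture for 6 h and the vehicle, and no uncultured tooth or tooth under another oxygen level is among the 10 samples. Sides were balanced according to the design, but the labels do not say which tooth was left or right.

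In the hypoxia response, the factors Hif1a and Epas1 pair with Arnt and bind short DNA sites that contain ACGTG or GCGTG. When oxygen is present, the prolyl hydroxylases Egln1, Egln2 and Egln3 mark the factors for breakdown through Vhl. The secreted and surface targets act outside the cell, on blood vessels (Vegfa, Adm, Apln), on lipid uptake (Angptl4) and on carbon dioxide and pH (Car9, Car12). The E14 molar is a bud of epithelium that folds over condensed mesenchyme, with vessels in the surrounding tissue.

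All 11 markers of dental and oral epithelium and all 13 of dental mesenchyme were in the table, with Shh, Msx1, Pax9 and Barx1 among them. A gene in the table needs only 10 counts over all samples, and all 6 muscle markers were in it too. Presence alone therefore does not identify the tissue, and summed levels of the marker lists are given below. Total counts per tooth lay between 2845773 and 8403151 in the control samples and between 3456634 and 8763113 with IGF1, with embryo 1 lowest in both groups. Over all genes, 1666 of 14504 tested passed an adjusted p under 0.05 (edgeR's quasi-likelihood test with embryo as a block and Benjamini-Hochberg adjustment). That is 11.5% of the genes, of which 975 (6.72%) were higher and 691 (4.76%) lower. Of the 6 genes described here, Vegfa, Apln, Car12 and Adm were called higher and Angptl4 lower, and Car9 was not tested; as the 6 were chosen with results known, these calls are not read against the shares over all genes. All 5 IGF1 teeth lay above all 5 control teeth in 4.21% of the tested genes and below them in 3.03%, as in 3 of the 5 (Vegfa, Apln, Car12) and 1 of the 5 (Angptl4). Values are CPM, counts scaled to library size after TMM normalization, and each error is the SD over 5 teeth.

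Promoter windows from RefSeq (GRCm38.p6), which hold 250 bases before and 50 after a start site, were matched for 5 of the 6 genes, all except Angptl4. The stretches before the gene start in the annotation are printed for the 4 genes called higher with IGF1, 5′ to 3′ on the strand of the gene, with ACGTG or GCGTG, or the same letters read from the other strand (CACGT or CACGC), in capitals.
Vegfa, chr17:46032370-46032627, minus strand: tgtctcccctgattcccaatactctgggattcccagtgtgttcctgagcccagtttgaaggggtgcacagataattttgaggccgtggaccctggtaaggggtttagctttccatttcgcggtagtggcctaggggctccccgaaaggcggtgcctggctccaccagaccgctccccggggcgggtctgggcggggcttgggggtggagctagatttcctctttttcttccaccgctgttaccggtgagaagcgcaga
Apln, chrX:48034854-48035103, minus strand: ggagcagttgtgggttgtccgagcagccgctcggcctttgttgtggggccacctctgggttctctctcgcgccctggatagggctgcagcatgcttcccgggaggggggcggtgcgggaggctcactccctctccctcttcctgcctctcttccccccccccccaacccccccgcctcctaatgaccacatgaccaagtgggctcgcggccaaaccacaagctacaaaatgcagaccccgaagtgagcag
Adm, chr7:110627407-110627660, plus strand: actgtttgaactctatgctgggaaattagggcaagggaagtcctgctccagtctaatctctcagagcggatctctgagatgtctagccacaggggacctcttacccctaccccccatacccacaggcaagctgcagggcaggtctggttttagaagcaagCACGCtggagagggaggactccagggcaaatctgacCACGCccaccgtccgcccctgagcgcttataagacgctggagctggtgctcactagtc
Car12, chr9:66713436-66713685, plus strand: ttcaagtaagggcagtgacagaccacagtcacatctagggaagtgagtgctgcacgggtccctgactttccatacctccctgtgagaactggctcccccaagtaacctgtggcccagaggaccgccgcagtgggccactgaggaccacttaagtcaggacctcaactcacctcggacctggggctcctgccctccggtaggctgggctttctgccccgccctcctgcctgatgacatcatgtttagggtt

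Adm alone of these 4 carried the letters, as CACGC at 90 and at 54 bases before its RefSeq start site (positions -90 and -54). Further stretches of 30 bases are printed because they hold CACGT, in Car9 at position -18 and in the window of a RefSeq start site that lies inside Vegfa, at position -211 with GCGTG at -218.
Car9, chr4:43506995-43507024, plus strand: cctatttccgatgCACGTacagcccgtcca
Vegfa, internal start, chr17:46025361-46025390, minus strand: ccctggagtGCGTGccCACGTcagagagca
In the GENCODE annotation the Car9 stretch is untranslated exon in 1 of 7 transcripts, and the Vegfa stretch lies in the coding sequence of 8 of 13 transcripts. ACGTG on either strand occurs in 6447 of 32851 RefSeq windows (19.6%), GCGTG in 10639 (32.4%) and at least one of them in 14380 (43.8%), so a match is frequent. No match says only that the letters are not in the window searched. Binding was not measured in these samples.

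Vegfa (ENSMUSG00000023951, chr17:46016993-46032369, minus strand) codes for the secreted growth factor that drives the sprouting of blood vessels. In the control teeth of embryos 1, 2, 3, 4 and 6 it had 135, 121, 108, 123 and 100.3 CPM. In the IGF1 teeth of the same embryos it had 212, 568, 340.5, 201 and 157 CPM. Embryos 2 and 3 had the highest values with IGF1, while their control teeth were neither the highest nor the lowest, and the groups did not overlap. Vegfa rose 2.28-fold, a log2 fold change of 1.19 (SE 0.21, adjusted p = 0.00490 from edgeR with Benjamini-Hochberg adjustment). The IGF1 teeth of embryos 2 and 3 also had the largest totals of the series. With the teeth thinned to the smaller total of their pair, Vegfa had a log2 fold change of 1.19 (edgeR adjusted p = 0.00435). The part of differences in totals between embryos was not tested. The control teeth varied by 11.6% of their mean and the IGF1 teeth by 56.4%. The difference between the teeth of an embryo, in log2(CPM + 1), ran from 0.64 in embryos 1 and 6 to 2.22 in embryo 2 (mean 1.17, SD 0.72). With 5 pairs, a two-sided exact sign-flip permutation test cannot give less than p = 0.0625, and Vegfa, Apln, Car9, Car12 and Angptl4, each with the same sign in 5 of 5 embryos, all had that value.

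**Figure D1:**
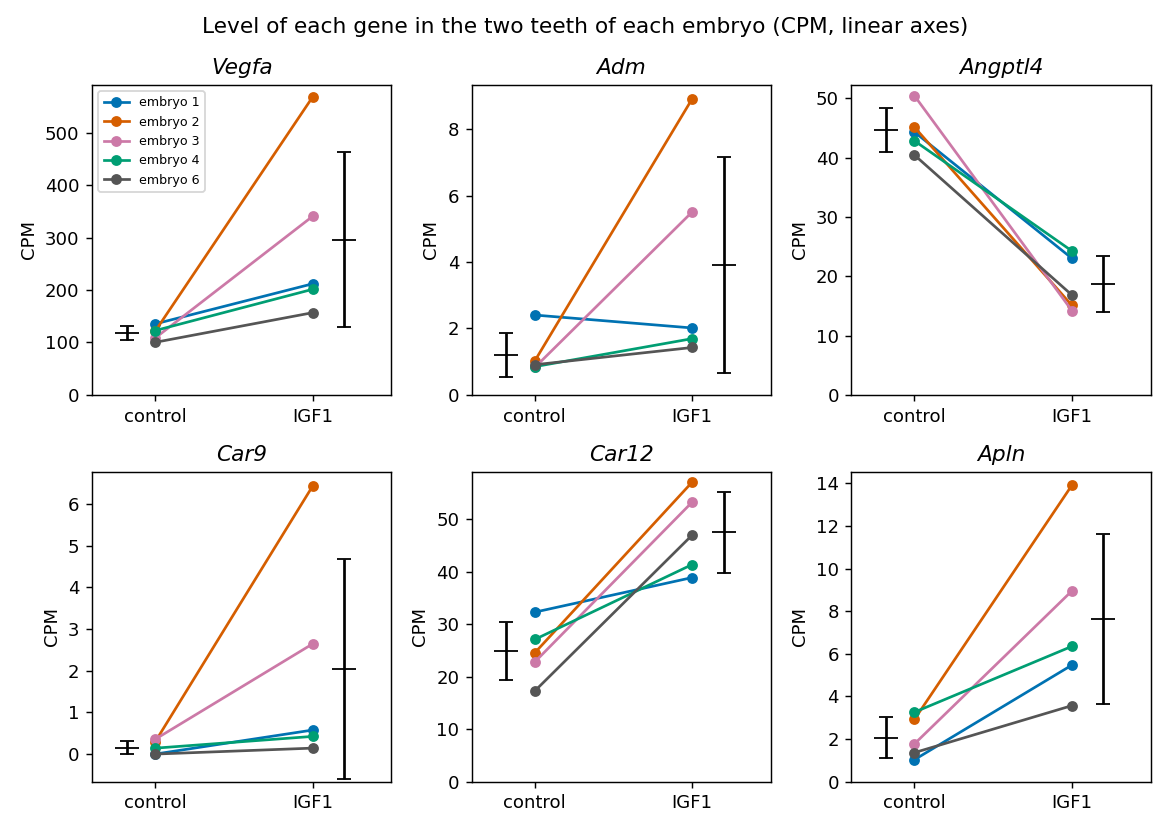
CPM of each gene in the control and the IGF1 tooth of each embryo, on linear axes that differ between genes, with lines joining the teeth of 1 embryo and bars giving mean and SD over 5 teeth. Vegfa, Adm, Apln, Car9 and Car12 are highest in the IGF1 teeth of embryos 2 and 3, and Angptl4 is lower with IGF1 in every embryo.

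Apln (ENSMUSG00000037010, chrX:48025146-48034853, minus strand) codes for apelin, a peptide ligand known from the tips of growing vessels. It had 1.03, 2.92, 1.77, 3.26 and 1.36 CPM in the control teeth of embryos 1, 2, 3, 4 and 6, from 3, 20, 15, 23 and 9 counts. With IGF1 it had 5.47, 13.9, 8.95, 6.35 and 3.57 CPM, from 19, 117, 78, 45 and 25 counts. The lowest IGF1 tooth, from embryo 6, lay just above the highest control tooth, from embryo 4, so that the groups did not overlap. Apln rose 3.54-fold (log2 fold change 1.82, SE 0.27, edgeR adjusted p = 0.00203). The expression filter asked for about 1.42 CPM in 5 teeth, which Apln reached in 5 IGF1 teeth and 3 control teeth. Its control teeth alone fell short of the filter, and without a filter its edgeR adjusted p was 0.00219. The difference per embryo was 1.93 in embryo 2, 1.84 in embryo 3 and 1.67 in embryo 1, against 0.79 in embryo 4 and 0.95 in embryo 6 (mean 1.44, SD 0.53). Embryo 1 thus stood with embryos 2 and 3 for Apln, whereas for Vegfa it stood with embryos 4 and 6, although its control value for Apln rests on 3 counts.

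Adm (ENSMUSG00000030790, chr7:110627661-110629820, plus strand) codes for adrenomedullin, a peptide that widens vessels and is needed for lymphatic growth. Its control teeth held 7, 7, 7, 6 and 6 counts in embryos 1, 2, 3, 4 and 6, and its IGF1 teeth 7, 75, 48, 12 and 10. These are 2.40, 1.02, 0.83, 0.85 and 0.91 CPM in the control group and 2.02, 8.91, 5.51, 1.69 and 1.43 CPM with IGF1. The high control value of embryo 1 comes from as few counts as the others in a library of the lowest total, and the groups overlapped through it. Adm rose 3.23-fold in the fit (log2 fold change 1.69, SE 0.48, edgeR adjusted p = 0.0429), with the IGF1 tooth higher in 4 of 5 embryos. The expression filter asked for about 1.42 CPM in 5 teeth, which Adm reached in 4 IGF1 teeth and 1 control tooth, so it entered the test mainly through the group in which it was high; without a filter its adjusted p was 0.0639. The ratio of IGF1 to control counts, scaled to library size, was 8.72 in embryo 2 (95% exact binomial interval 4.03 to 22.4) and 6.66 in embryo 3 (3.0 to 17.4). In embryos 1, 4 and 6 it was 0.838, 1.99 and 1.57, each with an interval that includes 1. These intervals cover counting error only. The call ended without embryo 2 (log2 fold change 1.19, adjusted p = 0.184), embryo 3 (1.36, 0.134), embryo 4 (1.84, 0.0775) or embryo 6 (1.90, 0.0618), and without embryo 1 the gene did not pass the filter. Over 9 alternatives that gave a value the edgeR, limma or DESeq2-scaled adjusted p ran from 0.0248 to 0.184. The exact sign-flip permutation test over the 5 pairs gave p = 0.125.

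Angptl4 (ENSMUSG00000002289, chr17:33773750-33781830, minus strand) codes for a secreted inhibitor of lipoprotein lipase and is a known target of the fatty acid receptors of the PPAR family as well as of hypoxia. Its control teeth had 44.3, 45.1, 50.4, 42.8 and 40.4 CPM in embryos 1, 2, 3, 4 and 6. Its IGF1 teeth had 23.0, 15.1, 14.2, 24.3 and 16.9 CPM. The control teeth were close to each other, at 8.30% of their mean, and every IGF1 tooth lay below every control tooth. Angptl4 fell by 1.30 on the log2 scale (SE 0.14, edgeR adjusted p = 0.000319), to 18.7 ± 4.65 CPM from 44.6 ± 3.70 (SD, n = 5 teeth in each group). Its change was opposite in sign to that of the other 4 genes that passed the test. The differences per embryo were -1.76 in embryo 3 and -1.52 in embryo 2, then -1.21 in embryo 6, -0.91 in embryo 1 and -0.79 in embryo 4 (mean -1.24, SD 0.40). The embryos in which Vegfa was raised most, 2 and 3, were those in which Angptl4 was lowered most. In bulk tissue, fewer cells of a type and less RNA per cell cannot be told apart.

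**Figure D2:**
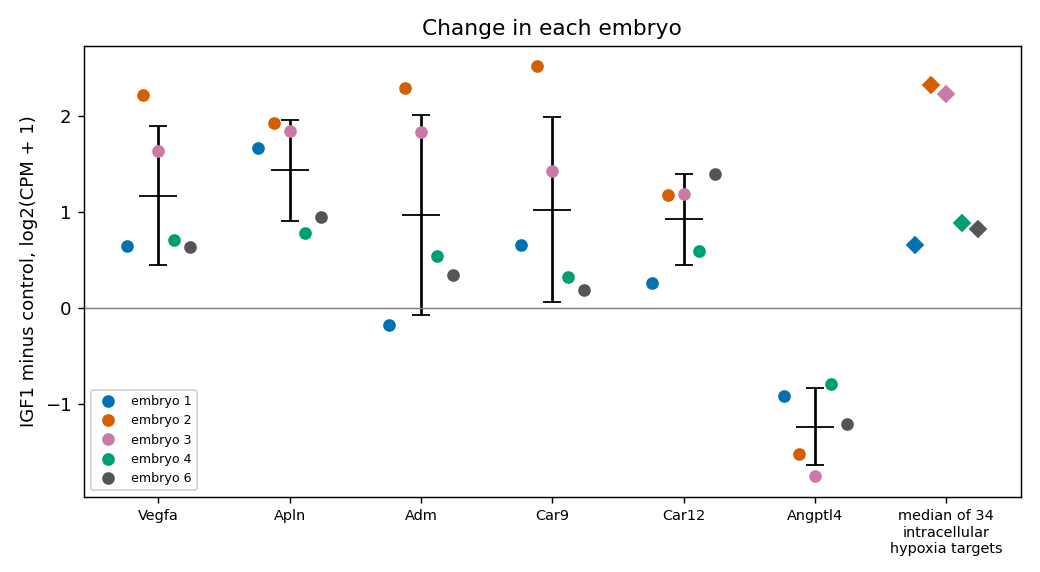
Difference between the IGF1 and the control tooth of each embryo in log2(CPM + 1) for the 6 genes, with mean and SD, and the median over 34 intracellular hypoxia targets as diamonds. Embryos 2 and 3 have the highest values for Vegfa, Apln, Adm and Car9 and the lowest for Angptl4, while embryo 6 is highest for Car12.

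Car12 (ENSMUSG00000032373, chr9:66713686-66766845, plus strand) codes for carbonic anhydrase 12, a membrane enzyme whose active site faces outward and turns carbon dioxide into bicarbonate and protons. In the control teeth it had 32.3, 24.5, 22.8, 27.1 and 17.3 CPM in embryos 1, 2, 3, 4 and 6. With IGF1 it had 38.9, 57.1, 53.2, 41.4 and 47.0 CPM. The groups did not overlap, and the IGF1 teeth were closer to each other for Car12 (16.2% of their mean) than for any other of the 6 genes. Car12 rose 1.97-fold (log2 fold change 0.98, SE 0.15, edgeR adjusted p = 0.00242). Its difference per embryo was largest in embryo 6 (1.39), which had the lowest control tooth, followed by 1.19 in embryo 3, 1.18 in embryo 2, 0.59 in embryo 4 and 0.26 in embryo 1 (mean 0.92, SD 0.48). Vegfa had its smallest differences in embryos 6 and 1, nearly equal at 0.64, and embryo 1 was also lowest for Car12. The place of embryo 6 thus differed between these genes. With 1 pair of teeth per embryo the order has no error of its own and was not tested.

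Car9 (ENSMUSG00000028463, chr4:43506966-43513729, plus strand) codes for carbonic anhydrase 9, a related surface enzyme much used as a tissue marker of hypoxia. The control teeth of embryos 1, 2, 3, 4 and 6 held 0, 2, 3, 1 and 0 counts, and the IGF1 teeth 2, 54, 23, 3 and 1. Most of the counts came from the IGF1 teeth of embryos 2 and 3, at 6.42 and 2.64 CPM, whereas the IGF1 teeth of embryos 1, 4 and 6 had 0.576, 0.423 and 0.143 CPM. The last of these lay inside the control range of 0 to 0.354 CPM and the others just above it, at 3 counts or fewer. The counts were too low for the expression filter, so Car9 was not tested in the fit across genes. In embryo 2 the ratio of scaled counts was 22.0 (95% exact binomial interval 5.79 to 186) and in embryo 3 it was 7.45 (2.25 to 38.8), intervals that again cover counting error only. The ratio of mean CPM over all teeth, on the log2 scale, was 3.69, and 2.93 without embryo 2. For embryos 1, 4 and 6 both teeth had 3 counts or fewer and no ratio is given. A count of 0 in the control tooth of embryo 1 allows a level of up to 1.03 CPM, and in that of embryo 6 up to 0.454 CPM.

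Since longer transcripts give more counts, levels of different genes were compared as CPM per kb of exon. In control teeth Vegfa was highest at 27.4 ± 3.17, followed by Angptl4 at 12.6 ± 1.05 and Car12 at 3.26 ± 0.73 CPM per kb, with ranges over 5 teeth that did not overlap between neighbours in this order. Adm (0.743 ± 0.418) and Apln (0.657 ± 0.310) came next and overlapped with each other, and Car9 was lowest at 0.0684 ± 0.0709. With IGF1 Vegfa was at 69.0 ± 38.9, Car12 at 6.25 ± 1.01 and Angptl4 at 5.28 ± 1.31 CPM per kb. Angptl4 and Car12 thus no longer had separate ranges, at 4.02 to 6.86 and 5.12 to 7.51 CPM per kb. Apln (2.43 ± 1.27), Adm (2.42 ± 2.01) and Car9 (0.886 ± 1.15) had the lowest means with IGF1, and their ranges overlapped each other. The highest IGF1 tooth for Adm, at 5.51 CPM per kb, reached the ranges of Angptl4 and Car12, and that for Apln, at 4.42, the range of Angptl4.

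**Figure D3:**
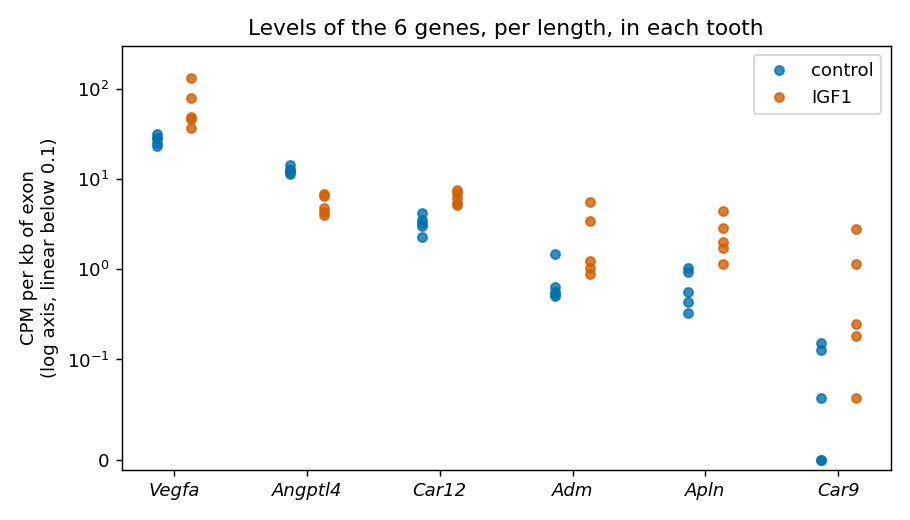
CPM per kb of exon for each gene in each tooth, on a log axis that is linear below 0.1, with control and IGF1 teeth side by side. Vegfa stands highest in both groups, Angptl4 and Car12 overlap with IGF1, and Car9 is at 0 in 2 control teeth.

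Other genes of the response were taken from lists of known members, which like the 6 genes were chosen with earlier results of these data known. Shares over all genes stand beside the counts of these lists for scale only, and the counts are not a test of the lists. Of 34 intracellular hypoxia targets, all tested, 29 rose at an adjusted p under 0.05 (edgeR), against 6.72% of all genes, with a median log2 fold change of 1.53 against 0.00 over all genes tested. The 5 that did not pass were Bnip3l (0.26), Kdm3a (0.53), Plin2 (-0.32), Mxi1 (-0.24) and Hilpda (0.62). Per embryo the list's median difference was 2.33 in embryo 2 and 2.23 in embryo 3, against 0.65, 0.89 and 0.83 in embryos 1, 4 and 6. Vegfa, Adm, Car9 and Apln had their largest differences in log2(CPM + 1) in the same 2 embryos, although as a plain ratio Apln was highest in embryo 1 (5.31, from 3 control counts), followed by embryo 3 (5.05) and embryo 2 (4.76).

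Of 22 other secreted and surface hypoxia targets, 19 were tested, of which 6 rose and 1 fell, against 6.72% and 4.76% of all genes, with a median log2 fold change of 0.20. Stc2, which codes for the secreted glycoprotein stanniocalcin 2, rose from 1.80 ± 0.65 to 23.8 ± 22.5 CPM (log2 fold change 3.58, SE 0.47, edgeR adjusted p = 0.000886). Slc16a3, the plasma membrane exporter of lactate, had 3.94 to 22.0 CPM in control teeth and 48.5 to 137.5 with IGF1, and rose (2.95, SE 0.28, adjusted p = 0.000126). Tgfa (1.30), Tfrc (0.75) and Loxl2 (0.44) also rose, while Angpt2, a ligand of the vessel receptor Tek, fell by 1.14 on the log2 scale (SE 0.20, adjusted p = 0.00488). Adm2, the relative of Adm on this list, was too low to be tested, at 0 to 0.438 CPM in control teeth and 0.565 to 7.13 CPM with IGF1, and was higher with IGF1 in 5 of 5 embryos. Edn1, also not tested, was at 1.03 to 3.07 CPM in control teeth and 0.864 to 1.43 CPM with IGF1. It was higher with IGF1 in 0 of 5 embryos. Over both lists of hypoxia targets, the 5 largest log2 fold changes among the genes called were those of Mgarp (3.88), Stc2, Slc16a3, Ankrd37 (2.90) and Aldoc (2.78). For Mgarp no control tooth reached the filter level of about 1.42 CPM, at 0.142 to 1.17 CPM against 2.43 to 13.55 with IGF1. Mgarp thus entered the test only through the group in which it was high. Control teeth of Stc2 (1.30 to 2.84 CPM) and Ankrd37 (0.454 to 5.15) also reached below that level.

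Among 10 factors and oxygen sensors of the pathway 2 rose, against 6.72% of all genes. These were Egln1 and Egln3, by 1.07 (SE 0.19, edgeR adjusted p = 0.00537) and 2.10 (SE 0.43, adjusted p = 0.0103) on the log2 scale. Both are themselves known targets of the response and stand on the list of intracellular targets too. The other 8 did not pass, with log2 fold changes of 0.27 for Hif1a (adjusted p = 0.0890), 0.02 for Epas1 and 0.08 for Vhl, which describe RNA and say nothing of protein. The median of the list was 0.05.

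**Figure D4:**
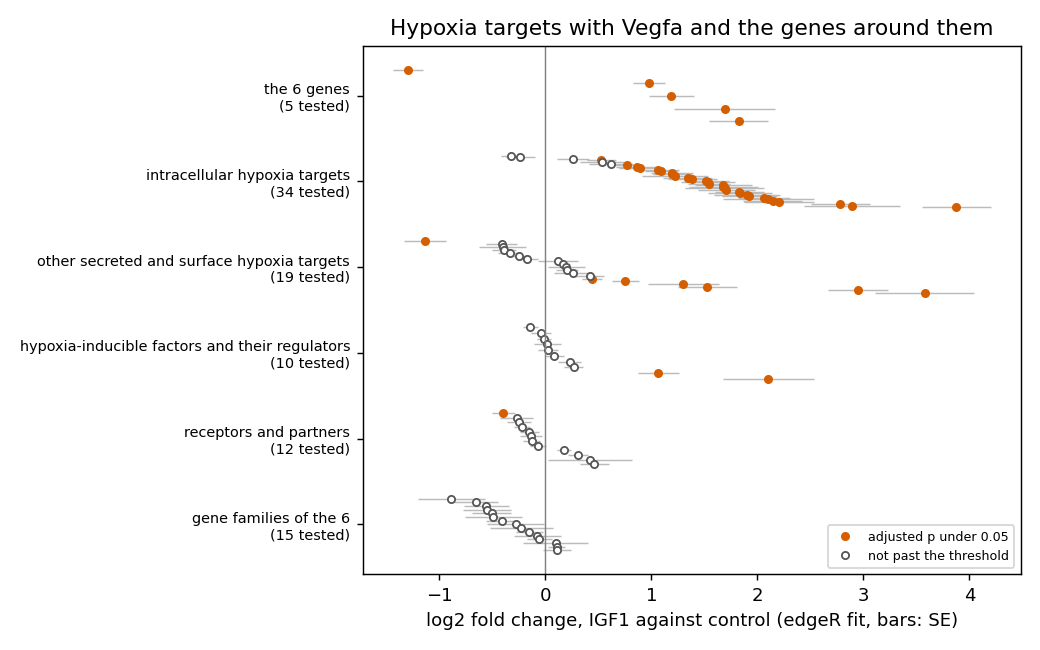
Log2 fold change with SE of each tested gene on each list, filled where the adjusted p from edgeR is under 0.05. Intracellular targets lie mostly between 0.5 and 4, whereas all tested receptors and relatives of the 6 genes lie within 1 of 0.

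Of 15 receptors and partners of these proteins, 12 were tested, with a median log2 fold change of -0.13, and 1 was called, where 11.5% of all genes were. This was Calcrl, which forms the adrenomedullin receptor with Ramp2 and fell from 60.1 ± 11.8 to 46.0 ± 10.9 CPM (log2 fold change -0.40, SE 0.11, edgeR adjusted p = 0.0396). The Vegfa receptors had log2 fold changes of 0.46 (Flt1, adjusted p = 0.0506) and -0.13 (Kdr, adjusted p = 0.469), and Flt1 was higher with IGF1 in 5 of 5 embryos. Aplnr, the receptor of apelin, was at 27.1 ± 5.84 CPM in control teeth and 22.6 ± 4.80 with IGF1 (adjusted p = 0.305). Lpl, the lipase that Angptl4 inhibits, was at 77.1 ± 6.97 and 70.7 ± 11.9 CPM (adjusted p = 0.322).

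Of 27 relatives in the vascular growth factor, calcitonin peptide, angiopoietin-like and carbonic anhydrase families, 15 were tested and 0 passed, where 11.5% of all genes did. At an unadjusted p under 0.05, 6 of them were lower with IGF1 and 0 higher by edgeR, where 12.2% of all genes tested were lower at that threshold; limma-voom gave the same numbers, and DESeq2's Wald test gave 4 lower and 0 higher, and neither called any after adjustment. The median log2 fold change was -0.28. Among them were Vegfb (0.11), Pgf (-0.41), Calca (-0.66), Angptl2 (0.11) and Car2 (-0.51). These are values and not changes. Adm2, described above, was among the relatives not tested.

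Marker genes of the cell types that the tooth could hold were read in the same fit, in which 11.5% of all genes were called. Of 16 endothelial markers, Esm1 rose (log2 fold change 1.26) while Cdh5 (-0.38) and Esam (-0.42) fell, and the summed level was 579 to 677 CPM in control teeth and 477 to 637 with IGF1. Of 7 erythroid genes tested 6 fell, with a median of -0.52 and a sum of 864 to 1443 CPM in control teeth against 613 to 1120 with IGF1. Other calls were 1 of 9 macrophage genes lower (Csf1r), 1 of 11 epithelial genes higher (Krt5) and 1 lower (Shh), 3 of 13 mesenchymal genes lower (Vim, Pdgfra, Pdgfrb), 1 of 7 pericyte genes higher (Cspg4), 1 of 2 glia and nerve genes higher (Tubb3) and 1 of 10 stress genes lower (Egr1). Of 4 cartilage and bone genes and 2 muscle genes 0 passed, and 0 had an unadjusted p under 0.05 by edgeR, DESeq2 or limma-voom, while edgeR without the embryo block had 1 cartilage and bone gene at that level, higher with IGF1. Within pairs, the median difference in log2(CPM + 1) was below 0 in all 5 embryos for the endothelial (-0.37 to -0.06), erythroid (-0.85 to -0.22) and mesenchymal (-0.31 to -0.01) lists. It was above 0 in all 5 embryos for the glia and nerve list (0.05 to 0.61), of which 2 genes were tested. No gene of the macrophage, epithelial, mesenchymal or pericyte lists was at 0 in all teeth of a group. As unpaired ranges, summed levels with IGF1 and without overlapped for macrophages (62.8 to 92.2 against 65.9 to 97.7 CPM), epithelium (2410 to 3378 against 2141 to 3322), mesenchyme (6849 to 9420 against 7597 to 9708) and pericytes (277 to 324 against 241 to 310.2). They also did so for cartilage and bone (43.5 to 630.8 against 52.0 to 280 CPM), muscle (6.66 to 41.5 against 8.18 to 20.6), glia and nerve (18.7 to 34.0 against 17.0 to 25.4) and stress genes (370.5 to 458 against 364 to 488). The mitochondrial share of counts was 2.05% to 2.51% with IGF1 and 2.17% to 3.28% in control teeth. The part of these in the values of Vegfa, Apln, Adm, Car9, Car12 and Angptl4 was not tested.

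For each gene that passed the test, the tested genes with at least 5 CPM on average whose 5 differences per embryo lay nearest, by root mean square, were looked up. Nearest to Vegfa were Eno1 (0.107), P4ha1 (0.129) and Gpi1 (0.143), which code for a glycolytic enzyme, a collagen prolyl hydroxylase and glucose-6-phosphate isomerase. Reads of Eno1 could be split with near-identical copies. Nearest to Adm were Gpi1 (0.276), Fgf11 (0.287) and the glucose transporter Slc2a3 (0.295), and nearest to Apln were Cntnap1 (0.291), Fabp5 (0.300) and Kbtbd11 (0.340). Car12 lay nearest to Pdxp (0.224), E2f2 (0.249) and Agfg2 (0.293). Angptl4 lay nearest to the receptor kinase Ret (0.242), and the matrix protein Thbs1 (0.314) was also among its 3 nearest; they fell by 1.40 and 1.14 on the log2 scale. These distances describe 5 pairs of teeth. They were taken in log2(CPM + 1), which shrinks the differences of genes of few counts. Adm had a mean difference of 0.97 on that scale against 1.69 in the fit, and Apln 1.44 against 1.82. In the fit Gpi1 had 1.12. How far the nearest genes of Adm and Apln depend on the added 1 CPM was not tested.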

How the data were processed

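Each tooth was sequenced as its own library. The authors deposited estimated counts per gene, not normalized; the submitters' processing notes name FastQC 0.11.8, Trimmomatic 0.39, Salmon 0.99.0, DESeq2 and the build GRCm38. The transcript set and the use of strand are not given in the sources used here, and antisense genes overlap Adm and Car9, so their reads may be shared. Counts were whole, with 0 exceptions, and each gene had at least 10 over all samples; 94 identifiers were not in the annotation (GENCODE M21).

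Counts were tested with edgeR 4.0.16 (quasi-likelihood, TMM, filterByExpr, Benjamini-Hochberg, R 4.3.3), all 10 samples, embryo as a block, since both teeth of a pair came from 1 embryo. Deviations from group means correlated within pairs at 0.319, 0.208, -0.0389, 0.170 and 0.313, against a median of -0.0463 between embryos. The teeth of a group came from separate embryos per the labels, and each was 1 replicate. The fit was tested on simulated data. Alternatives used DESeq2 1.42.0, limma 3.58.1, other filters, no block, thinned counts and each embryo left out.

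The 6 genes and all lists were chosen with earlier results of these data known. Named genes are the 6, members of the pathway lists, the 5 largest called changes of the hypoxia lists and the 3 nearest genes of each; called genes of the marker lists and among chromosomal neighbours are named too, chosen after their values were seen. Some genes that fall under this rule are not reported here.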

Additional observations from a re-analysis of the deposited data

Results flagged for a closer look

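The Adm level of the control tooth of embryo 1 lay far from the other 4 control teeth, at 2.40 CPM against 0.83 to 1.02, and the gap to the nearest was 0.876 of the whole range. Of 12 groups of 5 teeth looked at, 1 had such a tooth, where chance gives about 0.6. That tooth held 7 Adm counts, and the other control teeth held 6 or 7.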

How the results depend on the processing

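Vegfa, Car12 and Angptl4 kept their direction and an adjusted p under 0.05 in all 12 alternatives, with log2 fold changes of 0.92 to 1.34, 0.86 to 1.12 and -1.43 to -1.16, and Apln did so in the 11 that kept it (1.66 to 2.10). Adm kept its call in 3 of 9. Without the replicate block it had 1.88 (adjusted p = 0.0576) and without a filter 1.65 (0.0639), and leaving out embryos gave 1.19 to 1.90; its adjusted p ran from 0.0248 to 0.184, and DESeq2's Wald test gave none. Car9 had a log2 ratio of mean CPM of 3.69, which ran from 2.93 (without embryo 2) to 4.12 (without embryo 3), and a fit without a filter, the one alternative that tests it, gave 3.29 (adjusted p = 0.0108). A filter of 10 counts in every sample left out Adm and Apln and called 3 of the 6 genes in place of 5. Over all genes 887 were called without the replicate block, 885 of them the same genes, and leaving out an embryo gave 986 (without embryo 4) to 1602, with 994 without embryo 6. The replicate block changed no other call among the 6 genes. A pseudocount of 5 lowered the mean difference of Apln to 0.80 from 1.44, of Adm to 0.46 from 0.97 and of Car9 to 0.38 from 1.02, by construction for genes of few counts. No control tooth held more than 3 counts of Car9, 7 of Adm or 23 of Apln, which limits the precision of their ratios. The cause of the other shifts was not tested.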

Other observations

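Genes next to the 6 on the chromosome were counted, a choice made after the values had been seen. Within 500 kb of the 6 gene starts lie 136 protein coding neighbours, of which 99 were tested and 13 passed (13.1%, against 11.5% over all genes), 10 higher and 3 lower with IGF1. The median log2 fold change of the neighbours lay between -0.13 (around Car12) and 0.13 (around Apln). Apln had the most, with Rab33a (1.95), Elf4 (0.46), Aifm1 (0.37) and Zdhhc9 (0.36) higher and Smarca1 (-0.28) lower among 9 tested. Around Vegfa 1 of 22 passed, Slc29a1 (0.54).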
